A study of Homo sapiens with 6 samples.

Results

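The cytosolic chaperonin CCT, also called TRiC, is built from 8 subunits encoded by 8 genes, TCP1, CCT2, CCT3, CCT4, CCT5, CCT6A, CCT7 and CCT8, and the mRNA of these 8 genes is described here in KYSE150, a long-established cell line from a human esophageal squamous cell carcinoma (ESCC). The members were taken by name from the known composition of the complex, with no measured value used, and they make up 8 of the 67140 gene identifiers in the deposited table. All 8 passed the filter on low counts, as did 19254 identifiers in all. RNA sequencing was performed on 3 samples carrying a control hairpin (shCtrl) and 3 samples carrying a hairpin against the long non-coding RNA AC007128.1 (shAC007128.1). Both groups were stable lines made by lentivirus and puromycin selection, were grown in the same medium with fetal bovine serum, and each rests on 1 hairpin. In the labels, the treatment text of all 6 samples mentions shAC007128.1, and the groups therefore rest on the sample titles and descriptions. The labels do not say whether the samples of a group came from separate cultures, and the p-values below measure the spread between these samples, which may be technical.

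CCT is a barrel of stacked rings that encloses a newly made protein and folds it with energy from ATP. Each ring holds 1 copy of each subunit in a fixed order, so the complex needs the products of all 8 genes together. It is best known for folding actin and tubulin, and it also folds WD40 propeller proteins, among them activators of the anaphase-promoting complex. Prefoldin hands unfolded chains to it, phosducin-like proteins bind it as co-chaperones, and the tubulin folding cofactors take tubulin from it.

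The 8 genes lie on 7 chromosomes, with CCT4 and CCT7 both on chromosome 2. In GENCODE v44 (hg38), TCP1 (ENSG00000120438) spans chr6:159778498-159789703 on the minus strand, CCT3 (ENSG00000163468) spans chr1:156308968-156367873 on the minus strand, and CCT6A (ENSG00000146731) spans chr7:56051685-56063989 on the plus strand. CCT2 (ENSG00000166226) spans chr12:69585426-69601570 on the plus strand and CCT7 (ENSG00000135624) spans chr2:73233420-73253021 on the plus strand. CCT4 (ENSG00000115484), CCT5 (ENSG00000150753) and CCT8 (ENSG00000156261) lie on chromosomes 2, 5 and 21. The promoter windows of RefSeq (GRCh38.p14) had an entry for 7 of the 8 genes, and CCT6A had none. Sequence upstream of 4 start sites is shown, those of CCT3, TCP1 and CCT2, which rose 2.01-fold, 1.69-fold and 1.55-fold, and that of CCT7, which rose 1.25-fold, the smallest rise of the 8. Each is the longest stretch of the 250 bases before the start site that overlaps no annotated exon, written 5′ to 3′ on the strand of the gene, and capitals mark a CCAAT box or its complement ATTGG.
CCT3 (chr1:156338312-156338502, minus strand, 191 bases): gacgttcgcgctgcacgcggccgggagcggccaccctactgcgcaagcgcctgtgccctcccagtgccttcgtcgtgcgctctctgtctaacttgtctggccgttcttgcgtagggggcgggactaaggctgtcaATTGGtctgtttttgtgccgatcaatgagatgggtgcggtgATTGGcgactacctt
TCP1 (chr6:159789704-159789811, minus strand, 108 bases): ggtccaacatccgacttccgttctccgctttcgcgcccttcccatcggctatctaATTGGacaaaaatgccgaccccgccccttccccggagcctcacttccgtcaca
CCT2 (chr12:69585209-69585425, plus strand, 217 bases): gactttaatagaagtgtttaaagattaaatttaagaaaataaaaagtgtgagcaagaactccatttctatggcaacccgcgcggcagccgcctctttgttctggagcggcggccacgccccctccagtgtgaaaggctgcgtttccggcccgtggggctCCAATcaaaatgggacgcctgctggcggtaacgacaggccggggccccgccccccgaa
CCT7 (chr2:73234058-73234235, plus strand, 178 bases): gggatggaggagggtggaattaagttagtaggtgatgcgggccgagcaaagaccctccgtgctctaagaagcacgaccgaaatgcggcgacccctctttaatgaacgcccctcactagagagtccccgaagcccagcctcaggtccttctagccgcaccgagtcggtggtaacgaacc
The stretch of TCP1 is the whole interval between its outermost start and the start of MRPL18 on the other strand. The stretches of CCT3 and CCT7 lie inside the gene spans, since longer annotated transcripts of both genes begin further upstream.

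The letters CCAAT were found on either strand in the 250-base windows of TCP1, CCT2, CCT3 and CCT8, with 2 copies in CCT3 and 1 in each of the others, and in 32.0% of 35116 promoter windows of that length. They were not found in the windows of CCT4 and CCT7. CCT8, with 1 copy, rose 1.27-fold, while CCT4 and CCT5, with none in the windows used, rose 1.42-fold and 1.65-fold. Whether these letters go with the size of the rise was not tested. Inverted heat shock units, written GAANNTTC or TTCNNGAA, are the letters read by heat shock factors. The first was found once, in the window of TCP1, outside the stretch printed above, and in 5.78% of all windows, and the second in none of these windows and in 6.62% of all. The ETS core CCGGAAG was found once, in the window of CCT2, also outside the stretch printed, and in 8.52% of all windows. The E-box CACGTG was found in none of the members' windows and in 6.34% of all. The window of CCT5 belongs to a start site 257 bases from that of its canonical transcript, held none of these letters and is not shown.

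To learn whether the chaperonin genes responded to the hairpin against AC007128.1, the samples were compared with edgeR's quasi-likelihood test across all 19254 genes that passed the filter. The mRNA of the ring rose as a whole, and no subunit fell. All 8 subunits were higher in shAC007128.1 at an adjusted p of at most 0.05, which 21.0% of all tested genes were. Over all tested genes 4041 were higher and 3820 lower, a split that went to 3001 and 4837 when libraries were scaled by upper quartile factors, under which 6 subunits were still called higher. For all 8 the lowest shAC007128.1 sample lay above the highest shCtrl sample, as it did for 27.0% of tested genes. CCT6A and CCT3 also passed the study's limit of a 2-fold change, which 5.57% of tested genes did in this direction. The median log2 fold change of the subunits was 0.68, against -0.02 over all tested genes. The subunits are among the most abundant mRNAs of these cells, between the 97.4th and 99.0th percentile of the tested genes by mean level. Among the 505 genes at least as abundant as the lowest subunit, 37.8% were called higher and the median log2 fold change was 0.08. In bulk RNA, a change in the number of cells of a type and a change in the RNA of each cell cannot be told apart.

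CCT6A, the zeta subunit, rose most. Its level, in TMM-scaled CPM (the read count relative to the scaled library total), was 336, 323 and 320.4 in the shCtrl samples and 742, 709 and 736 in the shAC007128.1 samples, a log2 fold change of 1.16 (SE 0.06, adjusted p = 2.54e-05). The groups are far apart and the samples within each lie close together. CCT3, the gamma subunit, was at 217, 204 and 203 CPM in shCtrl and 429.9, 405 and 419 CPM in shAC007128.1. Its log2 fold change was 1.01 (SE 0.06, adjusted p = 5e-05). CCT3 sits on the 2-fold limit: its log2 fold change ran from 0.87 to 1.04 over 16 alternative settings and was below 1 in 11 of them, with an adjusted p of at most 0.05 in each.

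TCP1, CCT5, CCT2 and CCT4 rose by less than 2-fold. TCP1, the alpha subunit and the first of the family to be described, was at 214, 209 and 202 CPM in shCtrl and 367, 340.4 and 348 CPM in shAC007128.1, a log2 fold change of 0.76 (SE 0.06, adjusted p = 0.000142). CCT5, the epsilon subunit, in which inherited mutations cause a sensory neuropathy, was at 392, 374 and 382 CPM in shCtrl and 658, 576 and 664 CPM in shAC007128.1. The second shAC007128.1 sample was the lowest of its group for CCT5 and still well above every control, and the log2 fold change was 0.73 (SE 0.07, adjusted p = 0.000305). CCT2, the beta subunit, was at 344, 329.7 and 329.8 CPM in shCtrl and 514, 497 and 540.0 CPM in shAC007128.1, with a log2 fold change of 0.63 (SE 0.06, adjusted p = 0.000256). CCT4, the delta subunit, was at 307, 308 and 301 CPM in shCtrl and 412, 422 and 472 CPM in shAC007128.1, with a log2 fold change of 0.51 (SE 0.07, adjusted p = 0.00118). In CCT4 the third shAC007128.1 sample stood above the other 2, and the controls lay close together.

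CCT8 and CCT7 rose least and had the largest SE of the 8 subunits. CCT8, the theta subunit, was at 411, 346 and 383 CPM in shCtrl and 428, 506 and 509.8 CPM in shAC007128.1, a log2 fold change of 0.34 (SE 0.10, adjusted p = 0.026). The gap between the groups was small, since the first shAC007128.1 sample lay just above the first control. CCT7, the eta subunit, was at 342, 330.3 and 327 CPM in shCtrl and 465, 427 and 360.1 CPM in shAC007128.1, a log2 fold change of 0.33 (SE 0.10, adjusted p = 0.0317). The third shAC007128.1 sample was the lowest of the group and lay closer to the controls than to the other 2. Both calls were near the limit: each was lost in 8 of 16 alternative settings, among them scaling by library size only (adjusted p = 0.0769 for CCT7 and 0.0598 for CCT8), and without each sample but the third of shAC007128.1 for CCT7 (adjusted p of 0.0728 to 0.106) and without replicate 2 or 3 of either group for CCT8 (0.0581 to 0.101). Without the third shAC007128.1 sample the log2 fold change of CCT7 was 0.41 (adjusted p = 0.00139), and without the first that of CCT8 was 0.42 (adjusted p = 0.0123).

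**Figure D1:**
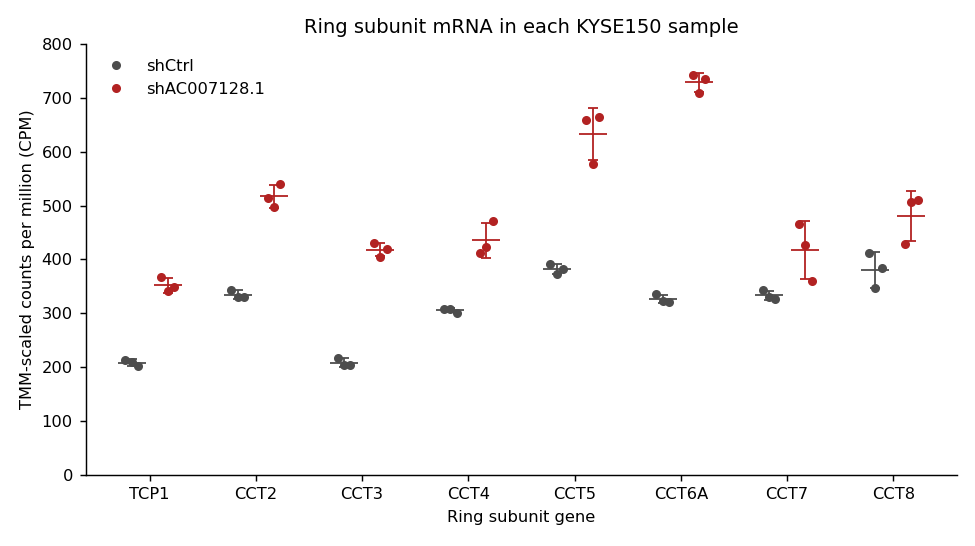
Level of each ring subunit mRNA in TMM-scaled CPM, with 1 point per sample, the group mean as a horizontal bar and the SD as an error bar (n = 3). The shAC007128.1 points lie above the shCtrl points for all 8 genes, with the widest gap in CCT6A and the narrowest in CCT8.

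**Figure D2:**
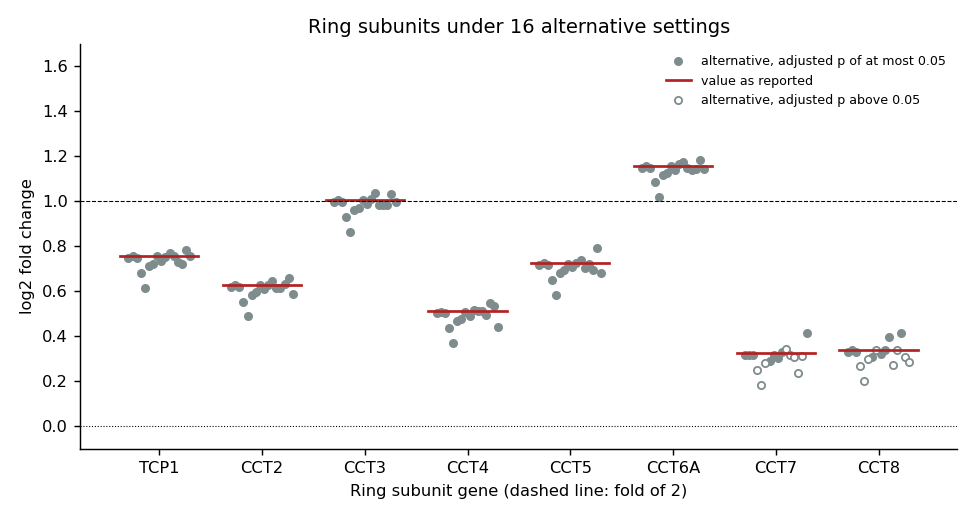
Log2 fold change of each ring subunit as reported (red line) and under 16 alternative settings (points), with open points where the adjusted p was above 0.05. No point lies below 0, and the open points belong to CCT7 and CCT8.

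The log2 fold changes of the subunits spread over 0.83, from 0.33 in CCT7 to 1.16 in CCT6A, with an SD of 0.30 over the 8 genes, against an SD of 0.70 over the 505 genes of like abundance. Of the 28 pairs of subunits, 24 had a log2 ratio that did not overlap between the groups, a share of 85.7% beside the 73.7% of pairs among those 505 genes. That share lies near the background, and is no result about the subunits. The ratio of CCT6A to CCT7 was higher in shAC007128.1 by 0.84 on the log2 scale and that of CCT6A to CCT8 by 0.82. In the assembled ring the subunits follow each other in the order TCP1, CCT3, CCT6A, CCT8, CCT7, CCT5, CCT2 and CCT4. Along that order, which was looked up after the values were seen, the log2 fold changes were 0.76, 1.01, 1.16, 0.34, 0.33, 0.73, 0.63 and 0.51. The genes with the 2 largest rises are neighbours in it, and so are the genes with the 2 smallest. This pattern was read off the values and was not tested.

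Summed over the 8 genes, ring subunit mRNA was at 2563, 2425 and 2449 CPM in the shCtrl samples and 4016, 3883 and 4049 CPM in the shAC007128.1 samples, 1.61-fold higher. To set the levels of the genes side by side, counts were divided by the length of the merged exons and scaled to the same total in every sample. On this per-length scale the summed level was 2062 ± 48.5 in shCtrl and 3228 ± 20.2 in shAC007128.1 (SD, n = 3), 1.57-fold higher. In shCtrl the order from the highest level was CCT8 with 362 ± 29.9, CCT4 with 360.1 ± 3.82, CCT7 with 296 ± 3.56, CCT6A with 270.0 ± 3.49, CCT2 with 251 ± 4.08, CCT5 with 216 ± 5.49, CCT3 with 171 ± 4.54 and TCP1 with 136 ± 1.10 (per-length level, mean ± SD, n = 3). On this length the ranges of CCT8 and CCT4 overlapped, and no other neighbours in this order did. In shAC007128.1 the order was CCT6A with 596 ± 7.59, CCT4 with 507 ± 30.3, CCT8 with 453 ± 46.7, CCT2 with 384 ± 7.41, CCT7 with 367 ± 50.9, CCT5 with 353 ± 19.4, CCT3 with 340.3 ± 7.22 and TCP1 with 227 ± 7.99. Here the ranges of CCT4 and CCT8 overlapped, though CCT4 was higher than CCT8 in each sample. Each step from CCT2 to CCT7, CCT5 and CCT3 overlapped as well, and there the order differed between samples. The middle of the order is therefore not resolved by 3 samples. On merged exon length CCT6A was at the fourth place in shCtrl and at the first in shAC007128.1, and TCP1 was lowest in both. The order depends on the length used. With the coding length CCT5 held the first place in shCtrl and CCT4 the sixth, and with the canonical transcript length CCT4 held the fourth and CCT6A the fifth. In shAC007128.1 CCT6A came first with all 3 lengths. With the canonical length its range overlapped that of CCT2, though CCT6A was higher than CCT2 in each sample. TCP1 had the lowest mean with all 3 lengths in both groups, though it overlapped CCT3 in shCtrl with the coding length.

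As shares of the summed per-length level, CCT6A went from 13.1% to 18.5%, CCT3 from 8.31% to 10.5% and TCP1 from 6.58% to 7.02%, each without overlap between the groups. CCT8 went from 17.5% to 14.0%, CCT4 from 17.5% to 15.7% and CCT7 from 14.3% to 11.4%, also without overlap. The shares of CCT2 and CCT5 overlapped. With the coding length the share of TCP1 overlapped, from 8.18% to 8.59%, and that of CCT2 was lower without overlap, from 13.7% to 13.1%. The shares of CCT6A, CCT3, CCT4, CCT7 and CCT8 moved in the same directions without overlap with all 3 lengths, which rescale the same counts. How often such shares separate among other genes was not computed. Taken within each sample and then averaged, the highest subunit was 2.75 times the lowest in shCtrl and 2.63 times in shAC007128.1. The highest and lowest gene can differ between samples, so these are not ratios of the group means. These ratios depend on the length used: with the coding length they were 1.92 and 2.17, and with the length of the canonical transcript 2.32 and 1.89.

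**Figure D3:**
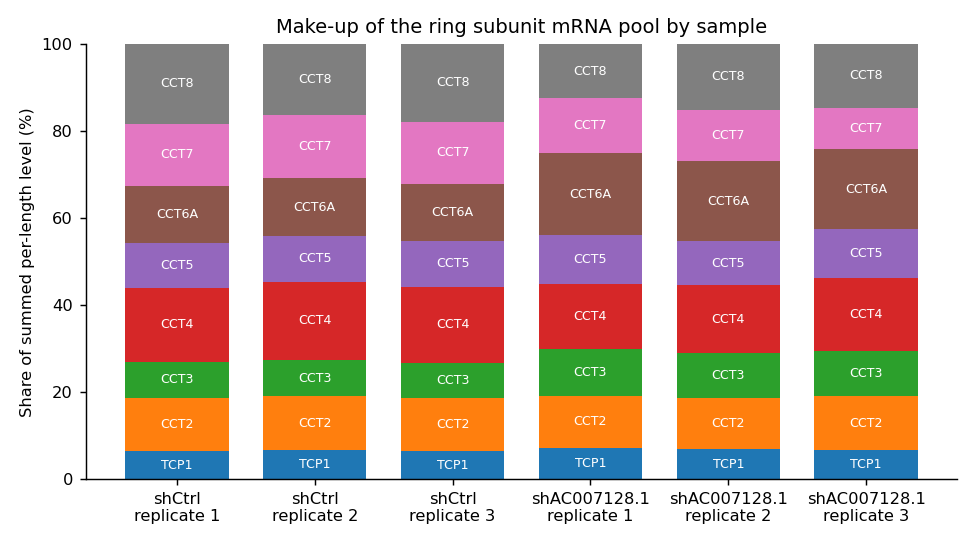
Share (%) of each subunit in the summed per-length level of the 8 ring subunit mRNAs, with 1 bar per sample. The CCT6A segment is larger in every shAC007128.1 sample, near 18.5% against 13.1% in shCtrl, and the CCT7 and CCT8 segments are smaller.

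Reads of a gene can be shared with its copies or with genes on the other strand, and the use of strand in the counting is not given in the sources used here. CCT6A has 2 expressed pseudogenes. CCT6P1 was at 10.6, 10.8 and 10.4 CPM in shCtrl and 9.98, 9.19 and 12.3 CPM in shAC007128.1, and CCT6P3 was at 6.26, 7.37 and 7.71 and 8.66, 6.90 and 9.82 CPM. The groups overlapped for both, with log2 fold changes of -0.01 (adjusted p = 0.947) and 0.25 (adjusted p = 0.298), and their counts came to 2.11% and 1.54% of those of CCT6A. Named pseudogenes of TCP1, CCT5, CCT7 and CCT8 had at most 16 counts in any sample. Of the merged exon bases, 30.8% of CCT5, 16.9% of CCT4, 12.4% of TCP1 and 2.5% of CCT8 overlap exons of other genes, and the other 4 subunits share none. The genes on the opposite strand were listed at 1.84 CPM or less in every sample. Small nucleolar RNAs lie within TCP1 (SNORA20 and SNORA29) and CCT6A (SNORA22B and SNORA15), and had at most 43 counts in any sample of these poly-A libraries.

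A gene that starts on the opposite strand within 1000 bases may use the same promoter region. Measured between the outermost annotated starts, 6 of the 8 ring genes have such a neighbour. The distances below are between those starts, and no search was made from the canonical start sites. In TCP1, CCT2, CCT3, CCT4, CCT5, CCT7 and CCT8 the canonical start lies inside the gene span, so distances from it are longer. Of the 5 neighbours that were tested, 3 rose, against 21.0% of all tested genes, 2 were not called and none fell, against 19.8%. ATPSCKMT is a mitochondrial lysine methyltransferase that starts 32 bases from the outermost start of CCT5 and further from its canonical start. It went from 9.13, 6.09 and 8.25 CPM in shCtrl to 16.4, 14.8 and 17.7 CPM in shAC007128.1, a log2 fold change of 1.06 (SE 0.18, adjusted p = 0.00276). It was the only neighbour past the 2-fold limit, and it was below that limit without the second shCtrl sample or the third shAC007128.1 sample. PRADC1 starts 181 bases from the outermost start of CCT7, but more than 1000 bases from the CCT7 start site used for the promoter window. PRADC1 went from 10.3, 11.2 and 9.96 to 21.8, 19.0 and 15.8 CPM (log2 fold change 0.85, SE 0.15, adjusted p = 0.00322). COMMD1, a member of the Commander complex of endosomes that starts 53 bases from CCT4, went from 9.12, 7.91 and 8.39 to 12.6, 12.3 and 12.4 CPM (log2 fold change 0.55, SE 0.12, adjusted p = 0.00838). The other 2 neighbours overlapped between the groups. PSPH, the last enzyme of serine synthesis, 81 bases from CCT6A, was at 50.3, 42.1 and 41.4 CPM in shCtrl and 48.8, 56.0 and 45.2 CPM in shAC007128.1 (log2 fold change 0.16, adjusted p = 0.311), beside the subunit with the largest rise. MRPL18, a mitochondrial ribosomal protein gene whose start lies 109 bases from that of TCP1 across the stretch printed above, was at 65.9, 59.6 and 63.1 and 75.6, 82.5 and 61.8 CPM (log2 fold change 0.22, adjusted p = 0.175). MRPL18 was called higher in 1 alternative setting, without the third shAC007128.1 sample (adjusted p = 0.0141). MIR3913-1, 603 bases from CCT2, had 0 counts.

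**Figure D4:**
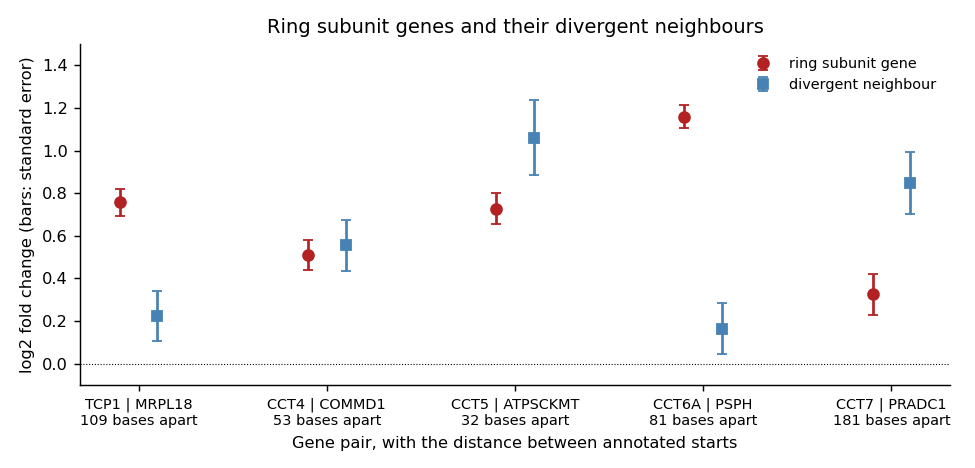
Log2 fold change with its SE (n = 3 per group) for 5 ring subunit genes (circles) and the gene starting on the opposite strand next to each (squares). PSPH lies near 0.16 beside CCT6A at 1.16, while PRADC1 at 0.85 lies above CCT7 at 0.33.

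The proteins that work with the ring did not move as a block. Of 15 tested genes of prefoldin, the phosducin-like co-chaperones and the tubulin folding cofactors, 6 were higher, 2 were lower and 7 were not called. Among all tested genes 21.0% were higher and 19.8% lower. The median log2 fold change of the 15 was 0.28. All 3 tested phosducin-like genes rose. TXNDC9, also called PhLP3, went from 46.3, 40.5 and 37.9 CPM in shCtrl to 61.8, 60.3 and 76.2 CPM in shAC007128.1, a log2 fold change of 0.67 (SE 0.12, adjusted p = 0.00465). PDCL, or PhLP1, which assists the folding of G protein beta subunits, went from 22.7, 24.4 and 26.3 to 40.4, 35.1 and 33.7 CPM (log2 fold change 0.57, adjusted p = 0.00507). PDCL3, or PhLP2A, went from 24.2, 22.2 and 20.1 to 34.7, 26.3 and 28.5 CPM (log2 fold change 0.42, adjusted p = 0.0391), and its call was lost in 8 of 16 alternative settings, including without any 1 of the 3 shCtrl samples, with an adjusted p of up to 0.136 over the settings. PDCL2, a relative used in the testis, was listed at 0.

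Prefoldin is a complex of 6 different subunits, and its mRNAs split. PFDN2 fell, from 166, 156 and 156 CPM in shCtrl to 84.3, 73.1 and 62.4 CPM in shAC007128.1, a log2 fold change of -1.12 (SE 0.11, adjusted p = 0.000348), and it was the only one of the 15 partners past the 2-fold limit, which 10.1% of all tested genes passed on the lower side. It was also among the 3 partners whose groups were separated with shAC007128.1 lower, as 28.2% of tested genes were. VBP1, the prefoldin subunit that binds the von Hippel-Lindau protein, rose from 36.7, 36.6 and 36.4 to 54.0, 52.8 and 66.4 CPM (log2 fold change 0.66, SE 0.11, adjusted p = 0.00251). The other 4 were not called. Their log2 fold changes were 0.28 for PFDN1, 0.04 for PFDN4, 0.24 for PFDN5 and -0.09 for PFDN6, with adjusted p from 0.844 (PFDN6) down to 0.0987 (PFDN5). PFDN1 was called higher without the second shCtrl sample (log2 fold change 0.57, adjusted p = 0.0396) and PFDN5 without the third shAC007128.1 sample (adjusted p = 0.00954). The signs of PFDN4 and PFDN6 turned without the third shAC007128.1 sample, in which PFDN6 was at 16.5 CPM against 39.5, 34.4 and 35.5 CPM in the controls. The sign of PFDN4 turned in 4 further settings.

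The tubulin folding cofactors join alpha and beta tubulin into the dimer after the ring has folded them. TBCD, which holds beta tubulin, rose from 35.5, 36.9 and 36.4 CPM in shCtrl to 61.0, 63.6 and 53.6 CPM in shAC007128.1 (log2 fold change 0.71, SE 0.09, adjusted p = 0.000872), and its groups were well separated. TBCA, which also receives beta tubulin, rose from 74.5, 74.0 and 70.0 to 113, 102 and 82.1 CPM (log2 fold change 0.44, adjusted p = 0.0228). TBCE, which holds alpha tubulin, fell from 61.0, 67.5 and 66.4 to 48.9, 39.9 and 55.5 CPM (log2 fold change -0.43, adjusted p = 0.0308). The calls of TBCA and TBCE were both lost without any 1 of the 3 shCtrl samples and without either of the first 2 shAC007128.1 samples, and over all settings their adjusted p reached 0.0829 and 0.0960. ARL2, the small GTPase that acts with TBCD, had lower values in every shAC007128.1 sample (43.7, 40.3 and 27.2 CPM) than in the controls (55.6, 49.5 and 48.5 CPM) but did not pass the test (log2 fold change -0.46, adjusted p = 0.0697), while it was called lower in 7 of 16 alternative settings. TBCB and TBCC were not called, with log2 fold changes of 0.42 (adjusted p = 0.0842) and 0.11 (adjusted p = 0.455). TBCB was called higher without the third shAC007128.1 sample (log2 fold change 0.56, adjusted p = 0.0198), and the sign of TBCC turned with upper quartile factors (-0.03).

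**Figure D5:**
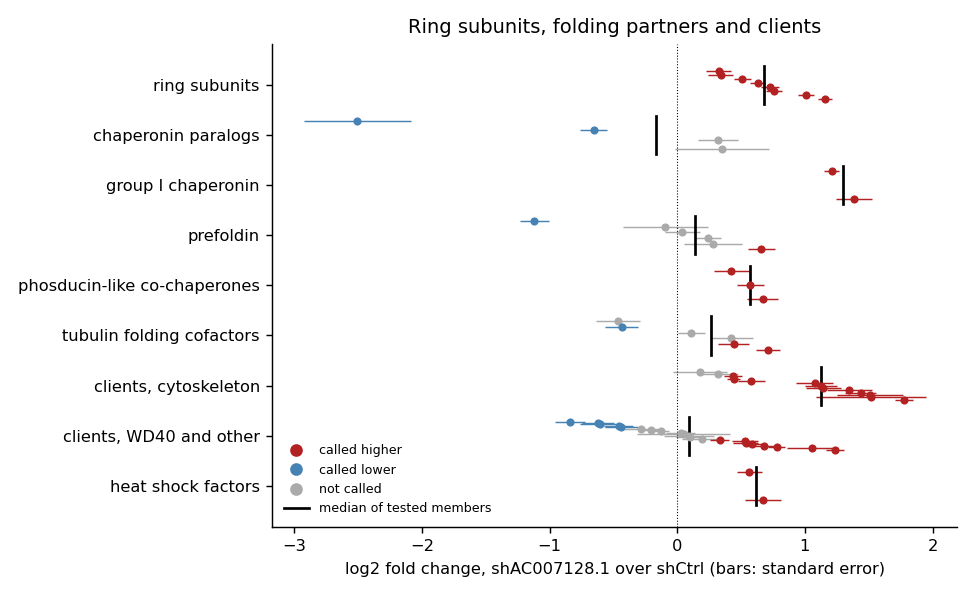
Log2 fold change of every tested gene in 9 lists, with the SE as a horizontal bar, coloured by the call at an adjusted p of at most 0.05, and the median of each list as a vertical bar. The 8 ring subunits, the 2 group I chaperonin genes and 11 of 13 cytoskeletal clients lie on the higher side and are called, while genes of prefoldin and the WD40 clients lie on both sides of 0.

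Of 4 tested relatives of the ring subunits that are not part of the general ring, none was called higher by edgeR or by DESeq2, and none was higher at an unadjusted p under 0.05. The edgeR test called 2 of the 4 lower. Among all tested genes 21.0% were called higher and 19.8% lower, and with 4 genes none higher is not set apart from that share. CCT6B, the testis form of the zeta subunit, was near the limit of detection and fell from 0.765, 1.24 and 0.840 CPM in shCtrl to 0.231, 0.146 and 0.120 CPM in shAC007128.1 (log2 fold change -2.51, SE 0.42, adjusted p = 0.00292), the opposite direction to CCT6A. BBS10, a chaperonin-like protein of the cilium, fell from 24.4, 26.0 and 26.8 to 15.5, 15.6 and 18.0 CPM (log2 fold change -0.65, SE 0.11, adjusted p = 0.00257). BBS12, from the same group, was not called, with a log2 fold change of 0.32 (adjusted p = 0.141). MKKS was not called either (0.35, adjusted p = 0.486), and its value rests on the second shCtrl sample, at 12.2 CPM where the other controls were above 35 CPM, since the log2 fold change without that sample was -0.01. CCT8L2 was listed at 0. The median over the 4 tested relatives was -0.17.

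Substrates of the ring were described in a list of 14 cytoskeletal clients and a list of 21 WD40 and other clients. Of the 13 tested cytoskeletal clients 11 rose, against 21.0% of all tested genes and 37.8% of the 505 abundant genes. Of the 11, 8 rose at least 2-fold, against 5.57% of all tested genes. None of the 13 fell, and the median log2 fold change was 1.12. TUBB4B, a widely used beta tubulin that is also found in cilia, went from 323, 309 and 299 CPM in shCtrl to 1110.0, 1102 and 980.0 CPM in shAC007128.1, a log2 fold change of 1.78 (SE 0.07, adjusted p = 1.6e-05). TUBA1B, a major alpha tubulin, went from 564, 557 and 513 to 1207, 1512 and 1700.3 CPM (log2 fold change 1.44, SE 0.12, adjusted p = 0.000158). TUBB, the abundant beta tubulin, went from 1238, 1224 and 1173 to 1657, 1624 and 1654 CPM and ACTB, cytoplasmic beta actin, from 2399, 2123 and 2024 to 2879, 3102 and 2878 CPM, with log2 fold changes of 0.44 (adjusted p = 0.000448) and 0.44 (adjusted p = 0.0029). Over the whole list, 11 of the 13 tested genes had groups that did not overlap, with shAC007128.1 higher, as 27.0% of all tested genes did. The other cytoskeletal clients ran from 0.18 to 1.52, and the 2 that were not called, named here after their values were seen, were ACTG1 and TUBB6. Tubulin genes are near-identical in parts, and reads could be split between them in the counting.

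Of 21 tested WD40 and other clients, 8 rose, 5 fell and 8 were not called, with a median log2 fold change of 0.09. Over all tested genes 21.0% rose and 19.8% fell, so that the share that rose was above that background and the share that fell was near it. No test was made over the list. PLK1, a mitotic kinase, rose from 57.1, 52.9 and 54.3 CPM in shCtrl to 132, 128 and 127 CPM in shAC007128.1 (log2 fold change 1.23, SE 0.07, adjusted p = 4.13e-05). STAT3, a transcription factor of cytokine signalling, rose from 136, 134 and 129.8 to 237, 225 and 223 CPM (log2 fold change 0.78, adjusted p = 0.000137), and GNB2, a G protein beta subunit, from 118, 111 and 114 to 184, 171 and 158 CPM (log2 fold change 0.58, adjusted p = 0.00109). On the other side, BBS2, a subunit of the ciliary BBSome, fell from 48.2, 51.1 and 42.0 to 28.5, 27.4 and 23.1 CPM (log2 fold change -0.84, adjusted p = 0.00136). VHL, the von Hippel-Lindau protein, fell from 57.7, 54.9 and 56.0 to 45.6, 42.2 and 34.7 CPM (log2 fold change -0.46, adjusted p = 0.015), and its call was lost without the first shCtrl sample (adjusted p = 0.0548). GNB1, the most abundant of the list, was at 365, 339 and 359.7 and 322, 317 and 334 CPM and was not called (log2 fold change -0.13, adjusted p = 0.138), but it was called lower in 3 alternative settings, namely library size only, upper quartile factors and without the third shAC007128.1 sample, at a log2 fold change down to -0.27.

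The chaperonin of the mitochondrial matrix, which is a distant relative with a separate ring, rose as well. HSPD1, which forms that ring, went from 314, 307 and 313 CPM in shCtrl to 716, 699 and 743 CPM in shAC007128.1, a log2 fold change of 1.21 (SE 0.06, adjusted p = 2.24e-05). HSPE1, its lid, went from 43.4, 41.1 and 43.5 to 129, 116 and 88.7 CPM (log2 fold change 1.38, SE 0.14, adjusted p = 0.000324). Both were separated between the groups, and both lay above every ring subunit in log2 fold change. HSF1 and HSF2 encode factors known to act on chaperonin genes. HSF1 mRNA went from 63.0, 71.7 and 78.4 to 107, 108 and 100.2 CPM (log2 fold change 0.56, adjusted p = 0.00336) and HSF2 mRNA from 17.5, 16.5 and 17.7 to 25.5, 23.8 and 33.1 CPM (log2 fold change 0.67, adjusted p = 0.00792).

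Among 6642 other genes at a mean log2 CPM of 5 or more, those whose centred log2 CPM over the 6 samples lay closest to the mean profile of the ring were NDUFAB1, the mitochondrial acyl carrier protein, ADSS2, an enzyme of AMP synthesis, POMP, the proteasome maturation factor, MRPL44, a mitochondrial ribosomal protein, and BLTP2. Their root mean square distances were 0.0104, 0.0205, 0.0223, 0.0248 and 0.0289 on the log2 scale. NDUFAB1 went from 76.5, 72.4 and 72.1 CPM in shCtrl to 120.1, 117 and 119.6 CPM in shAC007128.1. The ring subunits themselves lay between 0.0347 (CCT2) and 0.24 (CCT6A) from their own mean profile. The 5 genes are the closest of 6642 and the subunits were not picked by distance, so these distances cannot be set against those above. The samples fall into 2 groups, and likeness over 6 of them rests mostly on the difference between the groups.

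The targeted RNA, AC007128.1 (ENSG00000229970), had 69, 33 and 53 counts in shCtrl and 18, 37 and 15 in shAC007128.1, and the groups overlapped because of the second sample of each. Its log2 fold change was -0.77 (SE 0.51, adjusted p = 0.271), and an exact two-sided permutation test of its CPM gave p = 0.2, where 3 samples against 3 cannot go below 0.1. The longest run of bases that the 19-base target of the hairpin shares with a spliced transcript of a ring subunit was 10 bases, in CCT5, a length that 7.31% of 20046 protein-coding genes reach, and it was 6 to 8 bases in the other 7. The depth was 55764405 to 78610457 counts per sample, and 3 counts correspond to at most 0.0538 CPM before TMM scaling, far below every ring subunit. This limit covers counting error only. Mitochondrially encoded RNA took 9.69% to 10.2% of counts in shCtrl and 7.80%, 7.68% and 9.72% in shAC007128.1, so that the third shAC007128.1 sample lay within the control range. A count was seen for 26842 to 27494 genes in shCtrl against 24623 to 24940 in shAC007128.1. The part of these differences in the results was not tested.

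The markers of the labelled cell type were present and several moved with the hairpin. Of 12 squamous and epithelial markers, all were tested, 8 rose and 1 fell, against 21.0% and 19.8% of all tested genes, and their summed level was 2594 to 2643 CPM in shCtrl and 3847 to 4334 CPM in shAC007128.1. PERP, KRT6A and KRT14 had log2 fold changes of 1.54, 2.46 and 2.28, DSG3 of -1.09, and KRT5, the most abundant, of 0.87, all with an adjusted p of at most 0.000706. SOX2, named after its values were seen, was at 0.328, 0.385 and 0.590 CPM in shCtrl and 4.73, 5.17 and 3.89 CPM in shAC007128.1 (log2 fold change 3.40, SE 0.28, adjusted p = 0.000146). The calls of CDH1 and DSP, which were higher, were lost in 8 and in 4 of 16 alternative settings. Of 7 fibroblast markers, COL1A2, COL3A1, DCN and PDGFRA did not pass the filter, COL1A1 (0.33) and LUM (2.14) were called higher and PDGFRB (-1.60) lower, and the sum was 15.3 to 16.2 CPM in shCtrl and 20.9 to 23.9 CPM in shAC007128.1, most of it COL1A1. The calls of COL1A1 and PDGFRB were lost in 12 of 16 and in 9 of 14 alternative settings. Among the leukocyte markers, PTPRC and LYZ did not pass, CD3E (0.61) and CD14 (-0.66) were not called, and CD68, a lysosomal protein also made outside the myeloid lineage, fell by 1.87 on the log2 scale. The leukocyte sum was 59.4 to 68.3 CPM in shCtrl and 14.8 to 24.1 CPM in shAC007128.1, nearly all of it CD68. Of 4 endothelial markers, CDH5 and KDR did not pass, PECAM1 (1.49) and VWF (-1.43) were not called, and the sum was 2.12 to 3.11 CPM in shCtrl and 0.302 to 2.02 CPM in shAC007128.1. PTPRC, DCN and KDR were at or near 0 in every sample. They were picked after their values were seen, and COL1A1 and CD68 of the same lists were not near 0.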

How the data were processed

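RNA sequencing of KYSE150 cells (3 shCtrl and 3 shAC007128.1 samples, poly-A paired-end TruSeq libraries, NovaSeq) was used as the authors deposited it. In the methods, the reads were filtered and then aligned to hg38 by Tophat, and Cufflinks gave FPKM values, while the submitters' processing notes list TopHat2 2.0.6 and CASAVA 1.8 and name both GRCh38 and mm10. The table deposited by the authors holds an estimated count for each Ensembl gene and sample, as whole numbers with no normalization. The program that counted them, the annotation release and the use of strand are not given in the sources used here. Low counts pile up at multiples of 4 (761, 1355 and 993 genes with 3, 4 and 5 counts in the first shCtrl sample). All sample columns matched a label, and 60357 of 67140 identifiers (89.9%) were found in GENCODE v44.

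Genes were filtered with filterByExpr (19254 kept), scaled by TMM (factors 0.967 to 1.042) and tested across all genes with glmQLFit and glmQLFTest of edgeR 4.0.16 in R 4.3.3, with Benjamini-Hochberg adjustment over all tested genes. The estimated counts are whole, so rounding changed nothing. Calls were made where the adjusted p was 0.05 or less, and the study's further limit of a 2-fold change was applied separately. The SE was taken as the absolute log2 fold change over the square root of F. Sums and per-length levels are descriptions with no test. After the main fit, the step was also run on simulated counts for the genes that the fit kept, with the same dispersion for every gene. The outcome of that run is not reported here.

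The members, lists and tests were chosen with earlier results of these data known. Named are the 8 subunits, AC007128.1, every tested gene of a list of up to 10, the 3 called genes with the smallest p in each direction and the most abundant gene of a longer list, tested divergent neighbours, and the 5 genes nearest the ring's mean profile. Some genes that this rule names are not reported here. Alternatives were DESeq2 1.42.0, limma-voom (limma 3.58.1), 3 other scalings, 2 other filters, a replicate block, counts divided by 4, thinned libraries, each sample left out, and other lengths. The canonical transcript length was added after seeing the data. Promoter sequences come from RefSeq.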

Additional observations from a re-analysis of the deposited data

How the results depend on the processing

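All 8 ring subunits kept a positive log2 fold change under all 16 alternatives, and 6 of them (TCP1, CCT2, CCT3, CCT4, CCT5 and CCT6A) kept an adjusted p of at most 0.05 in each. The number called higher was 8 under DESeq2 and limma-voom, 6 with library size only, upper quartile factors or no filter, and 6 to 7 with 1 sample left out. The call of CCT7 was lost with library size only (0.25), upper quartile factors (0.18), no filter (0.28) and without any sample but the third shAC007128.1 sample (0.24 to 0.41 over the 6 samples left out). The call of CCT8 was lost with library size only (0.27), upper quartile factors (0.20), no filter (0.30) and without replicate 2 or 3 of either group (0.27 to 0.42 over the 6). The upper quartile factors moved the median log2 fold change of all genes from -0.02 to -0.16, and leaving genes unfiltered to -0.15; against those medians the ring subunits stayed higher. The number of subunits past 2-fold was 1 in place of 2 under DESeq2, DESeq2's size factors, library size only, upper quartile factors, counts divided by 4, a minimum of 10 counts per sample and no filter, and 1 to 2 with 1 sample left out, because CCT3 lies on that limit. It was 1 without shCtrl replicate 2 or 3 and without shAC007128.1 replicate 1 or 3. The summed ring level differed by 0.61 on the log2 scale with library size only and by 0.54 with upper quartile factors, against 0.68. The ratio of the highest to the lowest subunit, averaged over the samples, was 1.92 (shCtrl) and 2.17 (shAC007128.1) with the coding length and 2.32 and 1.89 with the canonical length.

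Of the folding partners, 1 to 3 were lower with 1 sample left out, with 1 left without any shCtrl sample or the second shAC007128.1 sample. Of the clients, 8 were lower in place of 5 with upper quartile factors and 2 to 7 with 1 sample left out, the 2 being without the first shCtrl sample. Of the divergent neighbours, 0 were past 2-fold in place of 1 with library size only or upper quartile factors, and 0 to 1 with 1 sample left out, with 0 without the second shCtrl or the third shAC007128.1 sample, while edgeR called 3 of them higher at an adjusted p of at most 0.05. AC007128.1 ran from -1.29 to -0.51 and passed the limit in no setting. Over the ring, the lists, the neighbours and the genes nearest the ring's profile, 53 of 67 called genes kept their call in every setting and none changed direction, and the cause of the changes was not tested. Leaving out 1 sample leaves fewer residual degrees of freedom by construction.

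Samples with the same replicate number did not deviate together (correlations of 0.0306, -0.0254 and -0.0299). No shared effect of the number was seen, but whether the samples were handled in pairs cannot be told from these values. With the replicate block 7 subunits were called higher in place of 8, with CCT8 at 0.34 (adjusted p = 0.0638). With 3 samples per group and 1 hairpin, effects of the hairpin other than on AC007128.1 cannot be told apart from those of its loss.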
